A study of Mus musculus with 30 samples.

Results

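The CXCR5 gates split TFH2 cells, the labels' name for follicular helper cells of IL-4BacTg mice, into 3 sorted fractions. The 6 QuantSeq libraries of these fractions, 2 each of CXCR5lo, CXCR5int and CXCR5hi cells, are described here, out of 22 QuantSeq libraries and 30 libraries in the series. The rule that picks them reads title, library kit and gate label, and takes no measured value. The cells were splenocytes of C57BL/6 mice aged 8 weeks with the genotype label OTII Tg IL-4BacTg x OTII Tg. They were sorted as CD4+CD45.2+ PD1+ cells with low, intermediate or high CXCR5. TFH cells of OTII Tg mice, of the same strain, tissue and age, had passed through the same gates (3 CXCR5lo, 2 CXCR5int and 3 CXCR5hi libraries) and are set beside them at the end. OTII Tg is a T cell receptor transgene that recognises an ovalbumin peptide, and both groups carried it. The labels do not give the cells in which the IL-4BacTg transgene is active, an immunisation, the animals or any pooling, so the libraries of a gate may be technical repeats or separate mice.

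Follicular helper T (TFH) cells carry CXCR5, the receptor for the follicular chemokine CXCL13, and help B cells in germinal centres with CD40L and IL-21. The repressor BCL6 directs this fate together with TOX2 and ASCL2, while ID2, RUNX3, T-bet and KLF2 are known to oppose it or to direct other fates. KLF2 drives the receptors that let T cells leave lymphoid tissue, and ID2 blocks E proteins, which otherwise act on Cxcr5 and other TFH genes. TH2 cells are defined by GATA3 and the cytokines IL-4, IL-5 and IL-13, and TFH cells are a further source of IL-4. Sorting by the amount of CXCR5 on the surface therefore orders cells by a defining TFH protein.

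Depth ranged from 1.83 to 4.44 M counts a library (M is 10 to the power 6), with 7792 to 10585 genes at 10 or more counts. Levels below are counts per M counts (CPM) of the whole library. Replicates lay far apart: of genes with a mean of at least 200 counts, 19.6% in CXCR5lo, 17.8% in CXCR5int and 15.1% in CXCR5hi differed by over 2-fold between the 2 libraries of the gate. CXCR5lo replicate 2, the shallowest library, stood apart at 193 on principal component 1 (27.4% of the variance), where the other 5 libraries lay between -64.5 and -11.3, so counts are also given without it. Cd4 was at 767 and 1156 CPM in CXCR5lo, 1217 and 1008 in CXCR5int and 1155 and 1059.5 in CXCR5hi libraries, and Cd8a, Foxp3 and Ms4a1 had no count in any of the 6. Markers of other cells were present, and the myeloid and erythroid sums were higher in both CXCR5hi than in both CXCR5lo libraries. The 23 myeloid genes summed to 674 and 631 CPM in CXCR5lo, 972 and 1559 in CXCR5int and 1494 and 2663 in CXCR5hi libraries, 14 of the 19 tested were higher in both CXCR5hi than in both CXCR5lo libraries, where 15% of all genes tested were, and Siglech was at 0. The 9 erythroid genes measured summed to 428 and 742 CPM in CXCR5lo, 798 and 1194 in CXCR5int and 1177 and 1662 in CXCR5hi libraries, with Alas2 at 0. The 18 B cell and plasma cell genes summed to 607 and 222 CPM in CXCR5lo, 207 and 629.6 in CXCR5int and 573 and 999 in CXCR5hi libraries, with Ms4a1, Fcer2a, Fcmr and Spib at 0. The part of these cells in the differences below was not tested, and in bulk libraries fewer cells of a type and less RNA per cell cannot be told apart.

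CXCR5hi TFH2 cells held less transcript than CXCR5lo cells of the regulators Id2, Runx3 and Klf2, of the integrin activator Rasgrp2 and of Vim, Tagln2 and Anxa6. They held more of Art2a-ps, Pde3b and Psap, and Fam3c and Smad5 were counted in CXCR5hi but not in CXCR5lo libraries. Most of these genes stepped gate by gate. With edgeR's quasi-likelihood test over 14383 genes, 22 genes (0.153%) passed an adjusted p of 0.05 between CXCR5hi and CXCR5lo, and a gene that passes is said to be called. Of these, 7 (0.0487% of genes tested) were higher in CXCR5hi cells and 15 (0.104%) were lower. A slope over all 6 libraries, scored 0, 1 and 2 from CXCR5lo to CXCR5hi, passed for 12 genes (0.0834%), all of them among the 22. Of the 12, 2 rose (0.0139%) and 10 fell (0.0695%). The CXCR5hi and CXCR5lo libraries of all 22 were apart, a pattern that 27.8% of the tested genes share, and in 15 the 3 gates stood in full order with no overlap, against 2.56% of all. The 22 were picked for their difference between the outer gates of these libraries, so these shares are descriptions and not a test. Over all genes tested, 3993 had the outer gates apart, and 368 of these were in full order. DESeq2 called more, 127 genes (51 higher, 76 lower) between CXCR5hi and CXCR5lo and 112 for the slope, and 628 and 1023 genes had an unadjusted p under 0.05 in edgeR. DESeq2 gave no adjusted p to 5389 of the 14383 genes between CXCR5hi and CXCR5lo, so these could not be among its calls. The count and its balance depended on single libraries. Of the genes named above, Id2, Rasgrp2, Vim, Tagln2, Anxa6 and Fam3c were called in every alternative setting, as were Arl4c and Ahnak. Runx3, Klf2, Art2a-ps, Pde3b, Psap and Smad5 were not. Without CXCR5lo replicate 1, edgeR called 111 genes, 78 higher and 33 lower, 17 of them among the 22. Without CXCR5lo replicate 2 it called 21 (4 higher, 17 lower), 16 of them among the 22. Without CXCR5hi replicate 1 it called 38 (6 higher, 32 lower) and without CXCR5hi replicate 2 it called 29 (11 higher, 18 lower), with 15 and 16 of the 22 among them. With only the 6 TFH2 libraries in the fit it called 32 (10 higher, 22 lower). Of the 22, 13 were among these, and Sema4a, Klf2, Pde3b, Smco4, Psap, Ripor2, Smad5, Iqgap2 and AC122453.1 were not. The slope passed for 13 to 41 genes with 1 of the 6 libraries left out (13 without CXCR5lo replicate 2, and 21 to 41 without any of the other 5).

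**Figure D1:**
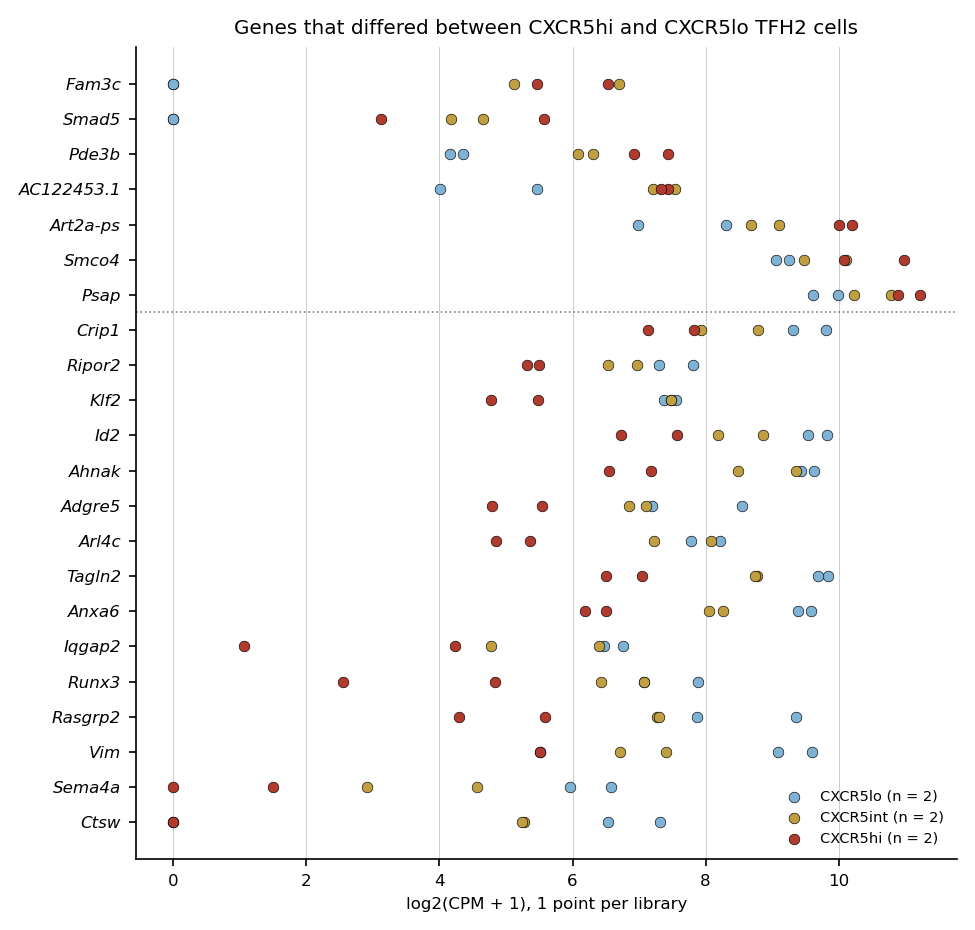
Level of the 22 called genes in the 6 TFH2 libraries, as log2(CPM + 1), with 1 point per library and 1 colour per gate. The 7 genes above the dotted line were higher in CXCR5hi than in CXCR5lo cells and the 15 below it were lower, and in every row the CXCR5hi and CXCR5lo points do not overlap.

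The transcript behind the gate stood in the order of the sort, without a call. Cxcr5 was at 34.5 and 35.4 CPM in CXCR5lo, 44.1 and 52.4 in CXCR5int and 117 and 139 in CXCR5hi libraries. All 6 libraries were in gate order, with the larger step between CXCR5int and CXCR5hi, but the difference between CXCR5hi and CXCR5lo (log2 1.92 ± 1.14, adjusted p 0.842) did not pass. Pdcd1, which encodes the PD1 that all 3 gates required, was at 0 and 67.0 CPM in CXCR5lo, 113 and 126 in CXCR5int and 163 and 212 in CXCR5hi libraries (log2 2.57 ± 1.12, adjusted p 0.842). It was in gate order too, and CXCR5lo replicate 1 held none of it. Bcl6 was at 32.8 and 31.1 CPM in CXCR5lo, 107 and 80.6 in CXCR5int and 286 and 281 in CXCR5hi libraries. The replicates of Bcl6 were close and all 3 gates were apart, yet its difference (log2 3.20 ± 0.80, adjusted p 0.112) did not pass edgeR's test, and DESeq2 gave an adjusted p of 0.00866. Tox2, a nuclear factor that supports Bcl6, was at 128 and 204 CPM in CXCR5lo, 499 and 619.9 in CXCR5int and 836 and 894 in CXCR5hi libraries (log2 2.44 ± 0.53, adjusted p 0.0948). It was likewise called by DESeq2 (adjusted p 1.41e-05) and missed edgeR's threshold.

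Other TFH genes were mostly higher in CXCR5hi libraries, without a call. Of 20 TFH core genes tested, 0 passed in either direction, 8 were higher and 0 lower at an unadjusted p under 0.05, and DESeq2 called 3 higher. In 15 of the 20 the CXCR5hi libraries lay above both CXCR5lo libraries, where 15% of all genes tested did, and 7 were in full rising order, against 1.31% of all. Their median log2 ratio was 1.98, where that of all genes tested was 0.00. This list, like those below, was chosen with earlier results of these data known, so its shares are descriptions. Cd160, a receptor on TFH cells, was at 43.0 and 58.9 CPM in CXCR5lo, 172 and 144 in CXCR5int and 188 and 256 in CXCR5hi libraries (log2 2.18 ± 0.75, adjusted p 0.711). Nav2 was at 39.4 and 47.4 CPM in CXCR5lo, 121 and 88.2 in CXCR5int and 225 and 159 in CXCR5hi libraries. Cebpa was at 20.1 and 7.09 CPM in CXCR5lo, 37.6 and 69.8 in CXCR5int and 71.9 and 77.3 in CXCR5hi libraries. Il6ra, a receptor chain for IL-6, was at 77.1 and 93.8 CPM in CXCR5lo, 140.3 and 143 in CXCR5int and 184 and 184 in CXCR5hi libraries (log2 1.16 ± 0.51, adjusted p 0.842). These 4 genes were in full gate order. Cxcr4, the receptor that draws cells to the dark zone of germinal centres, was at 18.3 and 15.8 CPM in CXCR5lo, 32.0 and 26.3 in CXCR5int and 70.7 and 87.9 in CXCR5hi libraries, the seventh gene in full order. Pou2af1, a coactivator of octamer-binding factors, was at 14.4 and 16.9 CPM in CXCR5lo, 15.0 and 29.7 in CXCR5int and 75.1 and 67.8 in CXCR5hi libraries, and only its CXCR5hi libraries were high. Sh2d1a, the adaptor SAP that T cells need to stay with B cells, was at 37.0 and 19.1 CPM in CXCR5lo, 67.5 and 129.9 in CXCR5int and 80.4 and 153 in CXCR5hi libraries. Its CXCR5int libraries overlapped the CXCR5hi libraries and lay above both CXCR5lo libraries. Btla, an inhibitory receptor, was at 150.4 and 53.4 CPM in CXCR5lo, 88.2 and 119 in CXCR5int and 300.4 and 268 in CXCR5hi libraries, with CXCR5hi apart from the other 4 libraries. Ascl2, which induces Cxcr5, had 187 and 9 counts in the CXCR5hi libraries and 0 counts in the other 4. Angptl2, the third gene called by DESeq2, was at 1.41 and 0 CPM in CXCR5lo, 15.4 and 61.9 in CXCR5int and 39.2 and 39.6 in CXCR5hi libraries, with CXCR5int replicate 2 above both CXCR5hi libraries. Il21, Cd40lg, Icos and Maf were not in full gate order, though Il21 and Maf were higher in both CXCR5hi than in both CXCR5lo libraries. Il21 was at 29.9 and 60.5 CPM in CXCR5lo, 126 and 42.8 in CXCR5int and 85.2 and 145 in CXCR5hi libraries (log2 1.40 ± 1.02, adjusted p 0.842). Cd40lg, the ligand that B cells need, was at 243 and 220.2 CPM in CXCR5lo, 213 and 290.2 in CXCR5int and 277 and 191 in CXCR5hi libraries (log2 0.07 ± 0.50, adjusted p 1). Icos, a costimulatory receptor, was at 242 and 361 CPM in CXCR5lo, 226 and 416 in CXCR5int and 314 and 374 in CXCR5hi libraries. Maf, a factor for IL-21 and IL-4, was the most abundant of the list at 1948 and 2596 CPM in CXCR5lo, 2841 and 2702 in CXCR5int and 3433 and 2627 in CXCR5hi libraries. For these 4 genes adjusted p values ran from 0.842 to 1.

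**Figure D2:**
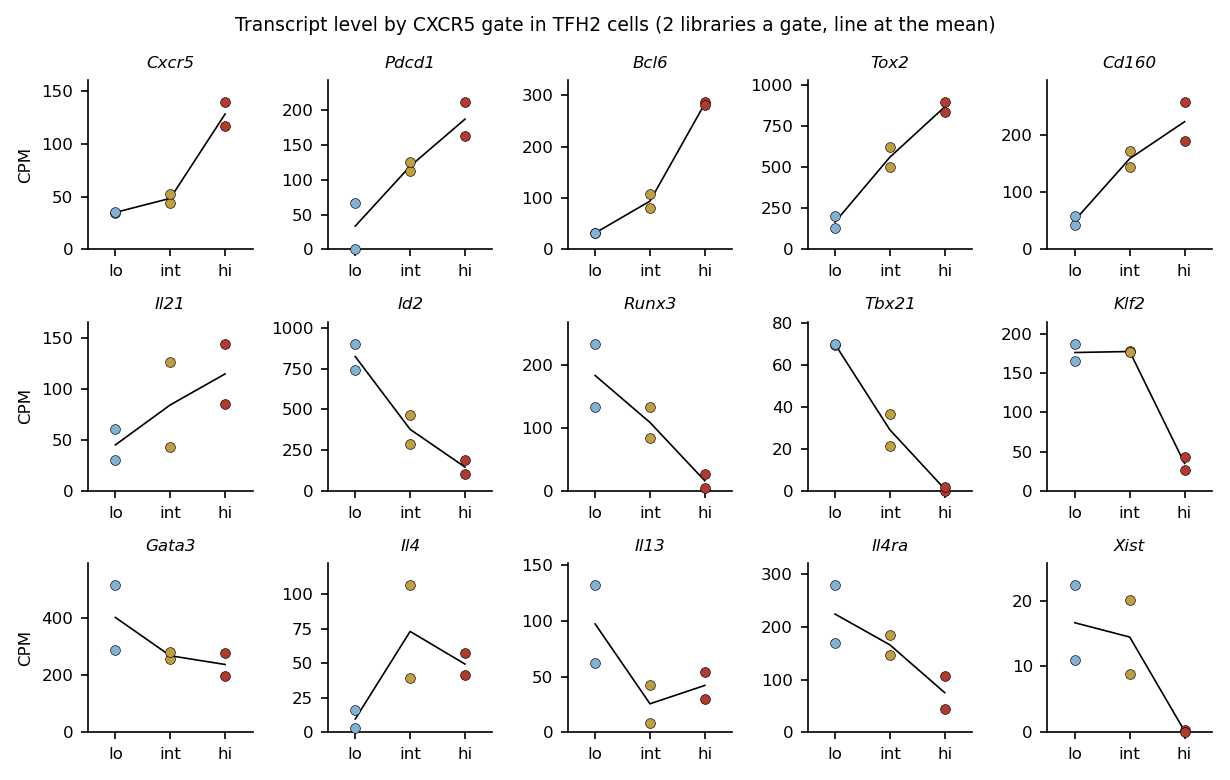
CPM of 15 genes against the CXCR5 gate in TFH2 cells, with 1 point per library and a line through the gate means. Cxcr5, Pdcd1, Bcl6, Tox2 and Cd160 stand in rising order, Id2 and Tbx21 in falling order, Klf2 steps down between CXCR5int and CXCR5hi, and Il4 is highest in a CXCR5int library.

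Id2, Runx3 and Klf2, regulators known to oppose the TFH programme or direct other fates, were lower in CXCR5hi cells. Id2, the inhibitor of E proteins, was at 744 and 903 CPM in CXCR5lo, 290.4 and 465 in CXCR5int and 105 and 188 in CXCR5hi libraries. The gates did not overlap, and Id2 was lower in CXCR5hi than in CXCR5lo cells (log2 -2.44 ± 0.34, adjusted p 1.37e-06) and fell by 1.22 ± 0.17 log2 per gate (adjusted p 4.52e-06). Runx3, a factor of TH1 and cytotoxic cells, was at 235 and 133 CPM in CXCR5lo, 133 and 84.9 in CXCR5int and 4.85 and 27.5 in CXCR5hi libraries (log2 -3.47 ± 0.54, adjusted p 5.3e-05). CXCR5lo replicate 2 and CXCR5int replicate 1 were level, both CXCR5hi libraries were below the other 4, and the call was lost without CXCR5hi replicate 1 (adjusted p 0.0641). Its slope was -1.72 ± 0.28 (adjusted p 0.00306) and was lost without the same library (adjusted p 0.145). Klf2, which maintains egress receptors, was at 165 and 188 CPM in CXCR5lo, 178 and 177 in CXCR5int and 43.6 and 26.4 in CXCR5hi libraries (log2 -2.27 ± 0.45, adjusted p 0.00493). The CXCR5lo and CXCR5int libraries of Klf2 overlapped and only the CXCR5hi libraries were low. Its slope (log2 -1.13 ± 0.23, adjusted p 0.0865) did not pass, and the CXCR5hi against CXCR5lo call was lost without CXCR5hi replicate 2 (adjusted p 0.403).

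Id2 and Runx3 were the called members of the TH1 and cytotoxic list. Of 18 members tested, 2 were lower and 0 higher, 7 were lower and 0 higher at an unadjusted p under 0.05, DESeq2 called 3 lower, adding Tbx21, and 9 lay below CXCR5lo without overlap, where 12.8% of all genes tested did. The list's median log2 ratio was -3.63 (-2.93 with genes of an empty gate at their bound), and its summed level was 1742 and 1666 CPM in CXCR5lo, 776 and 889 in CXCR5int and 179.7 and 354 in CXCR5hi libraries. Tbx21, which encodes T-bet, the TH1 master factor, was at 69.7 and 70.3 CPM in CXCR5lo, 21.4 and 36.9 in CXCR5int and 0 and 1.83 in CXCR5hi libraries. The CXCR5hi libraries of Tbx21 held 0 and 5 counts, but the difference did not pass (log2 -6.14 ± 1.92, adjusted p 0.771). Nkg7, of cytotoxic granules, was at 157 and 169 CPM in CXCR5lo, 77.2 and 29.7 in CXCR5int and 0 and 11.4 in CXCR5hi libraries (log2 -4.80 ± 1.65, adjusted p 0.842). The chemokine gene Ccl5 was at 151 and 115 CPM in CXCR5lo, 116 and 48.8 in CXCR5int and 17.4 and 16.5 in CXCR5hi libraries (log2 -2.93 ± 1.48, adjusted p 0.842). Klrg1, a receptor of effector T cells, had 319 and 298 counts in CXCR5lo, 22 and 264 in CXCR5int and 0 in both CXCR5hi libraries (adjusted p 0.406). Ctsw, the cathepsin of cytotoxic lymphocytes, stands outside that list and was called. It was at 158 and 91.6 CPM in CXCR5lo, 37.6 and 36.7 in CXCR5int and 0 and 0 in CXCR5hi libraries. With 3 counts put in each empty library it was at least 108-fold lower in CXCR5hi libraries, a bound for counting error only. Its adjusted p was 0.0222 by edgeR's test. That call was lost without either CXCR5hi library (adjusted p up to 0.337).

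The promoters of the 3 called regulators are shown because all 3 genes were called lower in CXCR5hi than in CXCR5lo cells. Windows are RefSeq promoters on GRCm38.p6, 250 bases before to 50 after the start, read 5′ to 3′ on the gene's strand. Capitals mark the RUNX core TGTGGT and the E protein box CAGGTG on either strand, so that the RUNX core reads ACCACA where it lies on the other strand. The window of Id2 is chr12:25096043-25096342 (minus strand) and that of Klf2 chr8:72318812-72319111 (plus strand). Runx3 has an upstream window at chr4:135120395-135120694 (plus strand) and a downstream one at chr4:135152295-135152594 (plus strand).
Id2: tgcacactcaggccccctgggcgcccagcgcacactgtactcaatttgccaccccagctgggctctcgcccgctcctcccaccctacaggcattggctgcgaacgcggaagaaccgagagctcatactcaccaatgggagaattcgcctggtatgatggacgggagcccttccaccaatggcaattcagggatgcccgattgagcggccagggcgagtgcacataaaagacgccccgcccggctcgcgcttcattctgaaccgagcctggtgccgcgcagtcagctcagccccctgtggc
Klf2: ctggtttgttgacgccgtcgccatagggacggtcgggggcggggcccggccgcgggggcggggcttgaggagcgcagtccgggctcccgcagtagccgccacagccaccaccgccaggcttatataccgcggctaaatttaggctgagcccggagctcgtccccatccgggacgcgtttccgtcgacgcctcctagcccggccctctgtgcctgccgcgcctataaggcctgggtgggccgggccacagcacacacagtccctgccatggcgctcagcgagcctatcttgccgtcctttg
Runx3 upstream: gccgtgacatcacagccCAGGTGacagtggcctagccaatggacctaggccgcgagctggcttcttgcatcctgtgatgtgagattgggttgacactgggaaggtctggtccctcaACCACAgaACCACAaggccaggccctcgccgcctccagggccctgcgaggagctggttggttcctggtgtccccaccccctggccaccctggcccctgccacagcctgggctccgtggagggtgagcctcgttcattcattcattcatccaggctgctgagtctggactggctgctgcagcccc
Runx3 downstream: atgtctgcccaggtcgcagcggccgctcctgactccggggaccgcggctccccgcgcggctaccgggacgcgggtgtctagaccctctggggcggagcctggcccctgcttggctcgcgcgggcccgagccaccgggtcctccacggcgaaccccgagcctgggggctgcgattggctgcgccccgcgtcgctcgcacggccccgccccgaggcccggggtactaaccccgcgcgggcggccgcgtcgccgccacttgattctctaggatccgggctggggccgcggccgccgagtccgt
Only the upstream Runx3 window of these 4 held either motif. RefSeq windows were matched for 16 of the 22 called genes, 27 windows in all. The RUNX core was in 11.1% of them on either strand, against 16.8% of all 32851 windows, the E protein box in 18.5% against 20.2%, and the KLF motif CCACACCC in 0 of 27 against 3.56%. The shares are descriptions of these letters, and those of the called genes lay below those of all windows for all 3.

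Of the other genes that were lower, Rasgrp2 had the smallest p. Rasgrp2 (chr19:6399340-6415216, GRCm38), which activates the integrin switch RAP1, was at 232 and 657 CPM in CXCR5lo, 153 and 157 in CXCR5int and 18.6 and 47.3 in CXCR5hi libraries. The gates did not overlap, and Rasgrp2 was lower in CXCR5hi than in CXCR5lo cells (log2 -3.69 ± 0.41, adjusted p 9.33e-09) and fell by 1.84 ± 0.21 log2 per gate (adjusted p 1.25e-07). The CXCR5lo replicates of Rasgrp2 differed by over 2-fold, and without the higher one, replicate 2, the log2 ratio was -2.76 (adjusted p 7.54e-06). Klf2 and Rasgrp2 were the called members of the follicle positioning and egress list. Of its 19 members tested, 2 were lower and 0 higher, 9 were lower and 2 higher at an unadjusted p under 0.05, and the median log2 ratio was -1.14. DESeq2 called 4 lower, adding Selplg and Itga4. Selplg, a ligand of selectins, was at 483 and 438 CPM in CXCR5lo, 322 and 186 in CXCR5int and 187 and 127 in CXCR5hi libraries (log2 -1.50 ± 0.37, adjusted p 0.0697). S1pr4, a receptor for the egress lipid sphingosine-1-phosphate, was at 210.2 and 442 CPM in CXCR5lo, 129 and 165 in CXCR5int and 90.9 and 60.1 in CXCR5hi libraries (log2 -2.04 ± 0.64, adjusted p 0.686). S1pr1, the main egress receptor, was at 76.1 and 111 CPM in CXCR5lo, 61.5 and 63.9 in CXCR5int and 14.9 and 51.3 in CXCR5hi libraries (log2 -1.45 ± 0.52, adjusted p 0.737). The integrin chain Itga4 was at 156 and 145 CPM in CXCR5lo, 108 and 169 in CXCR5int and 5.65 and 42.9 in CXCR5hi libraries (log2 -2.60 ± 0.66, adjusted p 0.111), and only its CXCR5hi libraries were low. Its partner chain Itgb7 was at 331 and 384 CPM in CXCR5lo, 330.0 and 321 in CXCR5int and 120.3 and 194 in CXCR5hi libraries (log2 -1.14 ± 0.38, adjusted p 0.594). Itgb1, another partner chain, was at 676 and 668 CPM in CXCR5lo, 155 and 353 in CXCR5int and 132 and 125 in CXCR5hi libraries (log2 -2.34 ± 1.31, adjusted p 0.842). Both partner chains were in falling order over the gates without a call. For Itgb7 that order rests on 331 against 330.0 CPM between CXCR5lo and CXCR5int (log2 -0.10 ± 0.38), and mainly its CXCR5hi libraries were low. Cxcr6, a chemokine receptor of effector T cells, was at 219 and 249 CPM in CXCR5lo, 32.0 and 136 in CXCR5int and 26.7 and 129 in CXCR5hi libraries (log2 -1.54 ± 0.60, adjusted p 0.842). The higher CXCR5hi library of Cxcr6 lay below both CXCR5lo libraries. Among the members that were higher at an unadjusted p under 0.05, Rgs16, an inhibitor of chemokine receptor signals, had 0 and 2 counts in CXCR5lo, 0 and 85 in CXCR5int and 61 and 107 in CXCR5hi libraries (adjusted p 0.842). S1pr2, which confines cells to germinal centres, had no count in CXCR5lo replicate 1 and 86.1 CPM in replicate 2, and was at 46.1 and 59.7 CPM in CXCR5int and 83.6 and 53.5 in CXCR5hi libraries.

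Anxa6, Tagln2 and Vim were lower in CXCR5hi than in CXCR5lo cells. Anxa6, a calcium-dependent membrane binder, was at 672 and 763 CPM in CXCR5lo, 264 and 305 in CXCR5int and 89.6 and 72.2 in CXCR5hi libraries (log2 -3.09 ± 0.39, adjusted p 1.21e-07). Tagln2, an actin-binding protein, was at 912 and 826 CPM in CXCR5lo, 436 and 425 in CXCR5int and 131 and 89.8 in CXCR5hi libraries (log2 -2.92 ± 0.44, adjusted p 0.000259). Vim, the intermediate filament vimentin, was at 772 and 542 CPM in CXCR5lo, 104 and 168 in CXCR5int and 44.4 and 44.7 in CXCR5hi libraries (log2 -3.84 ± 0.66, adjusted p 0.0387). In all 3 genes the gates were in falling order with no overlap, and their slopes were -1.54 ± 0.19, -1.46 ± 0.23 and -1.92 ± 0.31 log2 per gate (adjusted p 5.42e-07, 0.00258 and 0.0119). Arl4c, a small GTPase of the ARF family, was at 296 and 219 CPM in CXCR5lo, 270.2 and 149 in CXCR5int and 40.0 and 27.8 in CXCR5hi libraries (log2 -2.87 ± 0.41, adjusted p 5.72e-06). Its CXCR5lo and CXCR5int libraries overlapped, as for Klf2. Its slope (log2 -1.42 ± 0.25, adjusted p 0.0425) was lost without CXCR5hi replicate 2 (adjusted p 0.11). Adgre5, the adhesion receptor CD97, was at 371 and 146 CPM in CXCR5lo, 137 and 114 in CXCR5int and 26.7 and 45.4 in CXCR5hi libraries (log2 -2.81 ± 0.50, adjusted p 0.000999), and was lost without CXCR5hi replicate 1 or CXCR5lo replicate 1 (adjusted p up to 0.118). Ahnak, a large scaffold protein, was at 693 and 789 CPM in CXCR5lo, 656 and 359 in CXCR5int and 144 and 92.3 in CXCR5hi libraries (log2 -2.59 ± 0.50, adjusted p 0.0222). All gates of Ahnak were apart, with CXCR5int replicate 1 near the CXCR5lo libraries.

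Crip1, a small LIM-domain protein, was at 892 and 631 CPM in CXCR5lo, 442 and 244 in CXCR5int and 225 and 139 in CXCR5hi libraries (log2 -2.01 ± 0.42, adjusted p 0.0222), lost without CXCR5hi replicate 2 (adjusted p 0.241). Sema4a, a semaphorin that acts between T cells and their partners, had 174 and 173 counts in CXCR5lo, 56 and 29 in CXCR5int and 0 and 5 in CXCR5hi libraries. It was lower in CXCR5hi cells (log2 -6.26 ± 1.25, adjusted p 0.038), a ratio that rests on 5 counts in CXCR5hi cells, and its slope was -3.03 ± 0.58 (adjusted p 0.0425). The slopes of Adgre5 (-1.40 ± 0.25, adjusted p 0.00306) and Crip1 (-1.01 ± 0.21, adjusted p 0.0261) passed too. That of Adgre5 was lost without CXCR5hi replicate 1 or CXCR5lo replicate 1 (adjusted p up to 0.237), and that of Crip1 without CXCR5hi replicate 2 or CXCR5lo replicate 1 (up to 0.074). Iqgap2, a scaffold for small GTPases, was at 107 and 87.8 CPM in CXCR5lo, 26.3 and 83.5 in CXCR5int and 17.8 and 1.10 in CXCR5hi libraries (log2 -3.30 ± 0.74, adjusted p 0.0437). Ripor2, an inhibitor of RHOA, was at 156 and 222 CPM in CXCR5lo, 91.8 and 124 in CXCR5int and 38.8 and 44.3 in CXCR5hi libraries (log2 -2.13 ± 0.50, adjusted p 0.0452). The last pair lay closest to the threshold: Iqgap2 was lost without CXCR5hi replicate 2 (adjusted p 0.955), and Ripor2 without either CXCR5hi library or CXCR5lo replicate 2 (adjusted p up to 0.498). Over the 22 calls, Ahnak, Anxa6, Arl4c, Fam3c, Id2, Rasgrp2, Sema4a, Tagln2 and Vim were called whichever of the 4 libraries was left out.

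The 7 genes that were higher in CXCR5hi cells had less in common. Most of their calls were lost without CXCR5lo replicate 2, and most without CXCR5lo replicate 1. Without replicate 2, which left 1 library in that gate, the log2 ratio was 2.98 for Pde3b, 1.61 for Smco4 and 1.14 for Psap. Art2a-ps, annotated as a polymorphic pseudogene of the cell-surface ADP-ribosyltransferase ART2, was at 315 and 125 CPM in CXCR5lo, 547 and 407 in CXCR5int and 1178 and 1025 in CXCR5hi libraries. It was in rising order over all gates (log2 2.36 ± 0.43, adjusted p 0.000999, slope 1.18 ± 0.21, adjusted p 0.00251), and reads may be shared with its close copy Art2b. Without CXCR5lo replicate 2 its log2 ratio was 1.87 (adjusted p 0.303), and its slope was lost as well (adjusted p 0.0987). Pde3b, which degrades the second messenger cAMP, was at 19.4 and 16.9 CPM in CXCR5lo, 78.5 and 66.6 in CXCR5int and 121 and 173 in CXCR5hi libraries (log2 3.06 ± 0.64, adjusted p 0.0222), and its slope was 1.52 ± 0.32 (adjusted p 0.0425). Pde3b was lost without either CXCR5lo library or CXCR5hi replicate 2 (adjusted p up to 0.284, and 0.303 for the slope). Smco4, a small membrane protein, was at 533 and 607 CPM in CXCR5lo, 1103 and 711 in CXCR5int and 2024 and 1084 in CXCR5hi libraries (log2 1.51 ± 0.35, adjusted p 0.038). It was lost without either CXCR5lo library or CXCR5hi replicate 1 (adjusted p up to 1). Psap, the precursor of the lysosomal saposins, was at 1011 and 781 CPM in CXCR5lo, 1761 and 1195 in CXCR5int and 2374 and 1886 in CXCR5hi libraries (log2 1.30 ± 0.30, adjusted p 0.0437), lost without CXCR5lo replicate 2 or CXCR5hi replicate 1 (adjusted p up to 0.376). The summed myeloid level was also higher in both CXCR5hi libraries (1494 and 2663 CPM) than in CXCR5lo libraries (674 and 631 CPM), and its part in the Psap difference was not tested.

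Fam3c and Smad5 were absent from the counts of both CXCR5lo libraries. Fam3c (chr6:22306520-22356243, GRCm38), a secreted cytokine-like protein, had 84 and 457 counts in CXCR5int and 228 and 118 in CXCR5hi libraries (CXCR5hi against CXCR5lo adjusted p 6.35e-06). With 3 counts in each empty library it was at least 50.3-fold higher in CXCR5hi libraries, a bound for counting error only. Its 2 CXCR5hi values, 92.1 and 43.2 CPM, lay within the range of its CXCR5int values, 34.0 and 103 CPM. Smad5, which carries BMP signals to the nucleus, had 60 and 76 counts in CXCR5int and 115 and 21 in CXCR5hi libraries (at least 20.1-fold higher in CXCR5hi libraries by the same bound, adjusted p 0.0112). Libraries of a gate can differ by more than counting error, as Ccr7 did with 77.1 and 0 CPM in the CXCR5lo libraries. The Smad5 call was lost without either CXCR5lo library or CXCR5hi replicate 1 (adjusted p up to 0.167). AC122453.1 (chr17:82409935-82410819, GRCm38), annotated as a processed pseudogene whose reads may be shared with its parent gene, was at 15.1 and 43.1 CPM in CXCR5lo, 147 and 185 in CXCR5int and 171 and 159 in CXCR5hi libraries (log2 2.58 ± 0.53, adjusted p 0.016). It was lost without CXCR5lo replicate 1 (adjusted p 0.188).

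Comparisons of neighbouring gates place the changes along the ladder. Between CXCR5hi and CXCR5int, 6 genes passed (0.0417%), all lower in CXCR5hi: Arl4c (log2 -2.61 ± 0.41, adjusted p 0.000308), Rasgrp2 (log2 -2.23 ± 0.41, adjusted p 0.0063), Klf2 (log2 -2.32 ± 0.45, adjusted p 0.0107), Runx3 (log2 -2.75 ± 0.54, adjusted p 0.0124), Anxa6 (log2 -1.80 ± 0.39, adjusted p 0.0387) and Hist1h1e. Hist1h1e, a linker histone, was at 12.0 and 7.63 CPM in CXCR5lo, 14.2 and 59.0 in CXCR5int and 0.404 and 0 in CXCR5hi libraries (log2 -7.25 ± 1.78, adjusted p 0.0387), and was named after its values were seen. With only the 6 TFH2 libraries in the fit 7 genes passed, and 0 of these 6 were among them (Arl4c adjusted p 0.0556). In the fit with all groups, Arl4c was called whichever of the 4 libraries was left out. Runx3 was lost without CXCR5hi replicate 1 or CXCR5int replicate 1 (adjusted p up to 1), Klf2 without CXCR5hi replicate 2 (0.512) and Rasgrp2 without CXCR5hi replicate 1 (0.476). Anxa6 was lost without any 1 of the 4 (up to 0.639), and Hist1h1e without either CXCR5hi library or CXCR5int replicate 2 (up to 0.725). Between CXCR5int and CXCR5lo, 1 gene passed (0.00695%), Fam3c (adjusted p 3.26e-05), called without each library in turn. Without CXCR5lo replicate 1, 55 genes passed there (52 higher, 3 lower). DESeq2 called 33 genes for the upper step and 37 for the lower step.

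Of the 22 calls, Fam3c alone passed a test for departure from a straight line over the 3 gates. For Klf2 the lower step was 0.05 ± 0.44 and the upper step -2.32 ± 0.45 log2, and for Arl4c -0.26 ± 0.41 and -2.61 ± 0.41, so both changed between CXCR5int and CXCR5hi. AC122453.1 had the larger value in the lower step, where it was not called (2.57 ± 0.53, against 0.01 ± 0.53 in the upper). The test of CXCR5int against the midpoint of the outer gates did not pass for these 3 (Klf2 1.18 ± 0.39, Arl4c 1.17 ± 0.35 and AC122453.1 1.28 ± 0.46 log2, adjusted p 1 for each). It passed for 2 genes (0.0139%), for 21 without CXCR5lo replicate 1 and for 0 with only the 6 TFH2 libraries in the fit. Fam3c (adjusted p 0.0055) was lost without CXCR5hi replicate 2 or CXCR5int replicate 2 (adjusted p up to 0.274). Bach2, a repressor of effector fate, had 80 and 1 counts in the CXCR5int and 0 in the other 4 libraries (adjusted p 0.00532). It rests on CXCR5int replicate 1, without which its adjusted p was 1.

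**Figure D3:**
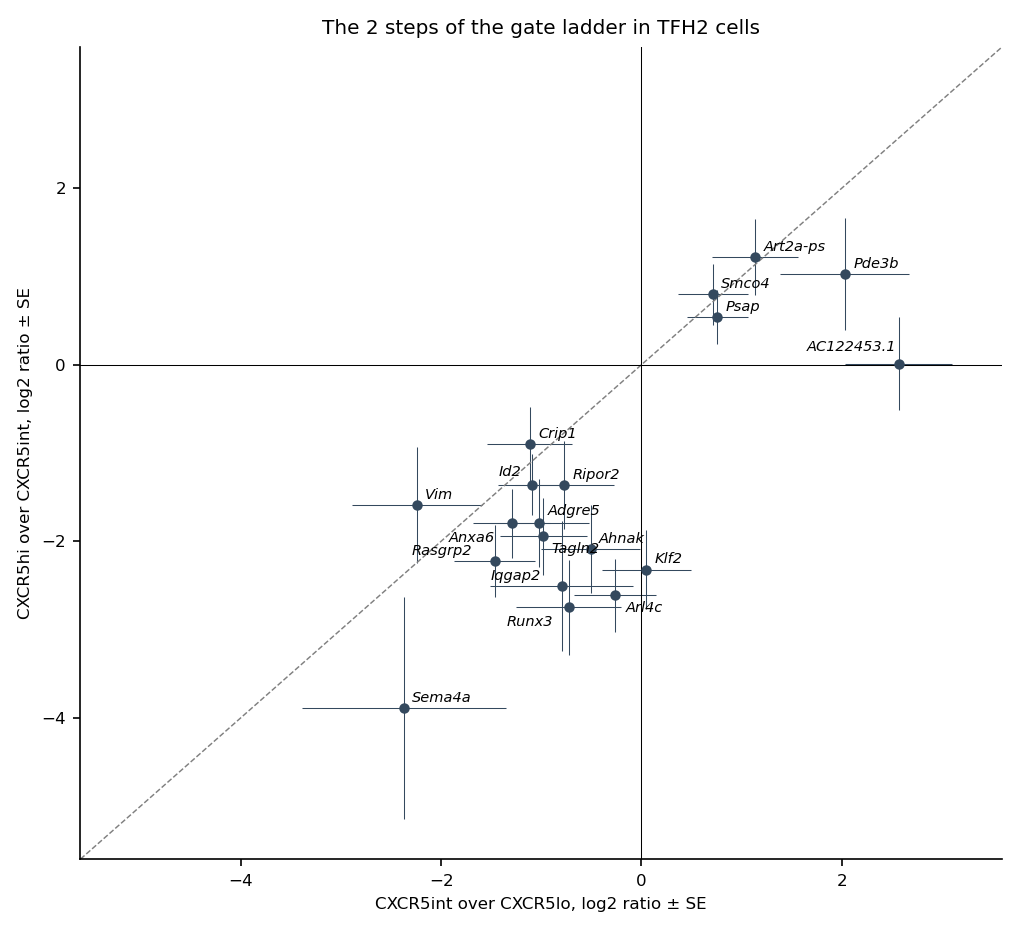
Upper step (CXCR5hi over CXCR5int) against lower step (CXCR5int over CXCR5lo) in TFH2 cells, as log2 ratios with standard errors, for the 19 called genes with counts in every gate. The dashed line marks equal steps, Klf2 and Arl4c lie near 0 on the lower step and below -2 on the upper step, and AC122453.1 lies near 0 on the upper step.

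No TH2 gene was called between gates, but the summed level of the TH2 list fell from gate to gate without overlap. Of 17 TH2 genes tested, 0 passed in either direction between CXCR5hi and CXCR5lo, 0 were higher and 4 lower at an unadjusted p under 0.05, and DESeq2 called 0. DESeq2 gave no adjusted p to some of them, Il5 and Il1rl1 among these. In 7 of the 17 the CXCR5hi libraries lay below both CXCR5lo libraries, where 12.8% of all genes tested did. In 1 they lay above, against 15% of all, and 2 were in full falling order, against 1.25% of all. The median log2 ratio was -0.69 (-0.77 with genes of an empty gate at their bound), and the summed level was 918 and 1247 CPM in CXCR5lo, 643 and 725 in CXCR5int and 623 and 585 in CXCR5hi libraries. Gata3, the TH2 master factor, was at 288 and 515 CPM in CXCR5lo, 255 and 281 in CXCR5int and 278 and 196 in CXCR5hi libraries (log2 -0.69 ± 0.45, adjusted p 0.842), with CXCR5lo replicate 2 above the other 5 libraries. Il4 was at 16.2 and 3.27 CPM in CXCR5lo, 107 and 39.6 in CXCR5int and 41.6 and 57.5 in CXCR5hi libraries (log2 2.37 ± 2.36, adjusted p 0.985). Its CXCR5int libraries differed by more than 2-fold and their range took in both CXCR5hi values. Il13 was at 62.3 and 132 CPM in CXCR5lo, 8.49 and 42.8 in CXCR5int and 30.3 and 53.9 in CXCR5hi libraries (log2 -1.15 ± 2.20, adjusted p 1). Il5 had 71 and 132 counts in CXCR5lo, 5 and 28 in CXCR5int and 0 in both CXCR5hi libraries, a falling order over all gates that did not pass (adjusted p 0.842). Il1rl1, the IL-33 receptor of TH2 cells, had 105 and 12 counts in CXCR5lo, 6 and 0 in CXCR5int and 0 in both CXCR5hi libraries (adjusted p 0.842). Il4ra, a receptor chain for IL-4, was at 169.7 and 279.6 CPM in CXCR5lo, 148 and 185 in CXCR5int and 107 and 44.3 in CXCR5hi libraries (log2 -1.50 ± 0.56, adjusted p 0.842). Ccr4, a TH2 chemokine receptor, was at 46.1 and 73.0 CPM in CXCR5lo, 22.2 and 39.8 in CXCR5int and 0 and 6.23 in CXCR5hi libraries (log2 -4.20 ± 2.05, adjusted p 0.842). The standard errors of Il4 and Il13 exceeded 2 log2, so differences of several fold in either direction were not detectable at this depth and number of libraries.

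**Figure D4:**
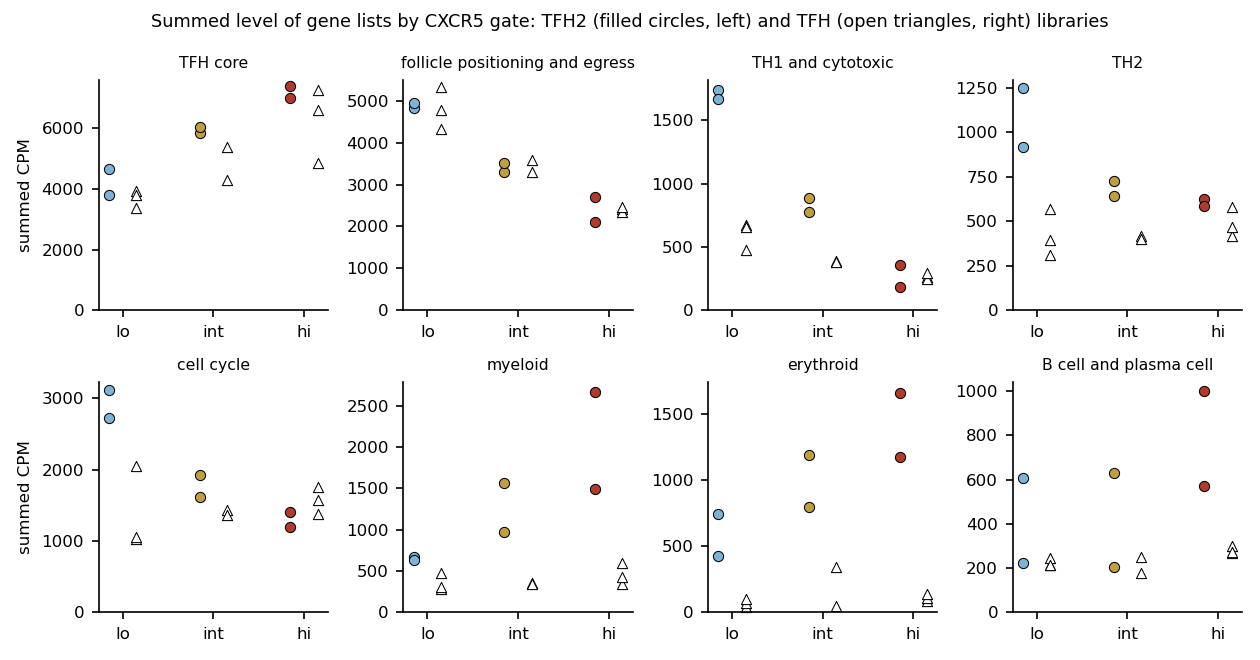
Summed CPM of 8 gene lists against the CXCR5 gate, with filled circles for the 6 TFH2 libraries and open triangles for the 8 TFH libraries. In TFH2 libraries the TFH core list stands in rising order and the TH1 and cytotoxic, TH2, follicle positioning and cell cycle lists in falling order. The myeloid and erythroid sums are higher in CXCR5hi than in CXCR5lo libraries.

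Among the other lists no member was called between CXCR5hi and CXCR5lo by edgeR. Cell cycle genes summed to 3123 and 2732 CPM in CXCR5lo, 1921 and 1617 in CXCR5int and 1404 and 1203 in CXCR5hi libraries. Of 24 tested, 13 lay below CXCR5lo without overlap, where 12.8% of all genes tested did, 1 was lower and 0 higher at an unadjusted p under 0.05, DESeq2 called 0 and the median log2 ratio was -1.40. Top2a, a topoisomerase of dividing cells, was at 176 and 285 CPM in CXCR5lo, 96.7 and 191 in CXCR5int and 93.7 and 70.7 in CXCR5hi libraries (log2 -1.42 ± 1.11, adjusted p 0.88). Tubb5, a tubulin, was at 447 and 315 CPM in CXCR5lo, 330.4 and 373 in CXCR5int and 170.4 and 144 in CXCR5hi libraries (log2 -1.23 ± 0.45, adjusted p 0.842). Ribosomal protein genes had a median of -0.16, with 10 of 26 below CXCR5lo without overlap (12.8% of all genes tested) and 0 higher and 1 lower at an unadjusted p under 0.05. Mitochondrially encoded genes had a median of 0.44, with 8 of 11 above without overlap (15% of all genes tested) and 4 higher and 0 lower at an unadjusted p under 0.05. Inhibitory receptors had a median of 1.85 over 8 genes, 3 higher and 0 lower at an unadjusted p under 0.05, and Btla and Cd160 are also in the TFH list. Glycolysis and hypoxia genes had a median of -0.42 over 20 (1 higher and 1 lower at an unadjusted p under 0.05), with Ldha, lactate dehydrogenase, at 393 and 345 CPM in CXCR5lo, 325 and 407 in CXCR5int and 122 and 129 in CXCR5hi libraries (log2 -1.50 ± 0.43, adjusted p 0.242), which DESeq2 called (adjusted p 0.0217). Naive and memory precursor genes had a median of 0.19 (0.20 with genes of an empty gate at their bound) over 20, 3 higher and 4 lower at an unadjusted p under 0.05. T cell identity genes had a median of 0.35 over 16, 2 higher and 0 lower at an unadjusted p under 0.05. T cell receptor induced genes had a median of -0.15 (-0.10 with genes of an empty gate at their bound) over 22, 0 higher and 1 lower at an unadjusted p under 0.05. Interferon response genes had a median of 0.26 (0.39 with genes of an empty gate at their bound) over 23, 3 higher and 0 lower at an unadjusted p under 0.05. Regulatory T cell genes had a median of -0.07 (-0.12 with genes of an empty gate at their bound) over 14, 1 higher and 1 lower at an unadjusted p under 0.05. Cholesterol synthesis genes had a median of -1.06 (-1.05 with genes of an empty gate at their bound) over 18, 1 higher and 0 lower at an unadjusted p under 0.05. TH17 genes had a median of 0.88 over 5, 0 higher and 2 lower at an unadjusted p under 0.05. In these lists DESeq2 called 2 naive and memory precursor genes lower and, beside Ldha, no other member. Satb1, a chromatin organiser, was 1 of the 2, at 211 and 256 CPM in CXCR5lo, 207 and 166 in CXCR5int and 105 and 91.2 in CXCR5hi libraries (log2 -1.20 ± 0.35, adjusted p 0.267, DESeq2 adjusted p 0.0117), in falling order. Cd27, a costimulatory receptor, was at 426 and 606 CPM in CXCR5lo, 868 and 581 in CXCR5int and 1078 and 1273 in CXCR5hi libraries (log2 1.24 ± 0.33, adjusted p 0.112). Tcf7, which encodes TCF1, a factor shared by naive and TFH cells, was at 353 and 268 CPM in CXCR5lo, 443 and 599 in CXCR5int and 348 and 660.2 in CXCR5hi libraries (log2 0.74 ± 0.37, adjusted p 0.842). Ptprc, the pan-leukocyte CD45 of the gate, was at 725 and 634 CPM in CXCR5lo, 990.5 and 783 in CXCR5int and 1029 and 1253 in CXCR5hi libraries (log2 0.80 ± 0.30, adjusted p 0.842).

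The lists of other cell types had medians of 1.71 for myeloid (19 genes tested), 1.07 for erythroid (6), 1.30 for B cell and plasma cell (13), 0.32 (0.55 with genes of an empty gate at their bound) for MHC class II (7), -2.77 (-2.20 with genes of an empty gate at their bound) for CD8 and NK cell (6) and -0.12 (-0.25 with genes of an empty gate at their bound) for granulocyte, basophil and mast cell genes (6). No member was called in any of them by edgeR or DESeq2, and 4 myeloid and 1 MHC class II gene were higher and 1 CD8 and NK cell gene was lower at an unadjusted p under 0.05. DESeq2 gave no adjusted p to some members, such as Fcgr3, Klrb1c and Cd79b. Csf1r, a macrophage receptor, was at 23.9 and 136 CPM in CXCR5lo, 95.0 and 267 in CXCR5int and 253 and 412 in CXCR5hi libraries (log2 2.12 ± 0.84, adjusted p 0.842). Hbb-bs, a globin, was at 228 and 213 CPM in CXCR5lo, 157 and 506 in CXCR5int and 524 and 645 in CXCR5hi libraries (log2 1.46 ± 0.72, adjusted p 0.842). MHC class II genes summed to 273 and 267 CPM in CXCR5lo, 221 and 328 in CXCR5int and 231 and 422 in CXCR5hi libraries. CD8 and NK cell genes, of which Cd8a, Ncr1, Klra8, Klre1 and Klrd1 were at 0, summed to 217 and 208 CPM in CXCR5lo, 89.8 and 75.6 in CXCR5int and 21.4 and 64.1 in CXCR5hi libraries. Nkg7 and Gzma are also in the TH1 and cytotoxic list, and Nkg7 made up most of both CXCR5lo sums. Of the 6 tested, 2 lay above CXCR5lo without overlap (15% of all genes tested) and 2 below (12.8%). Granulocyte, basophil and mast cell genes, of which Ngp, Camp, Prg2 and Epx were at 0, summed to 46.8 and 28.3 CPM in CXCR5lo, 8.09 and 112 in CXCR5int and 73.5 and 30.4 in CXCR5hi libraries. Xist, which marks female cells, was at 10.9 and 22.3 CPM in CXCR5lo, 8.90 and 20.0 in CXCR5int and 0.404 and 0 in CXCR5hi libraries, and the Y-linked Ddx3y at 101 and 66.0 CPM in CXCR5lo, 52.6 and 90.3 in CXCR5int and 48.5 and 82.4 in CXCR5hi libraries. Ddx3y was thus counted in every library, while Xist had 1 and 0 counts in CXCR5hi libraries against 31 and 41 in CXCR5lo libraries (adjusted p 0.842), and the part of female cells in the differences was not tested.

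TFH cells of OTII Tg mice passed through the same gates. The 2 comparisons set different libraries against each other but came from the same fit. They share its estimate of each gene's spread, so calls in both are not independent. In TFH cells, 20 genes (0.139%) passed between CXCR5hi (n = 3) and CXCR5lo (n = 3), 4 higher (0.0278%) and 16 lower (0.111%), and DESeq2 called 83. Arl4c, Klf2, Smco4, Anxa6, Id2, Rasgrp2 and Ahnak were called in both, in the same direction. These 7 are 31.8% of the TFH2 calls and 35% of the TFH calls. In TFH cells Arl4c, Smco4, Anxa6 and Rasgrp2 were called whichever TFH library was left out. Id2 was lost there without CXCR5hi replicate 3 or CXCR5lo replicate 3 (adjusted p up to 0.247), and Klf2 without any CXCR5hi library or CXCR5lo replicate 2 (up to 0.786). Ahnak was lost without 4 of the 6 libraries, CXCR5hi replicates 1 and 3 and CXCR5lo replicates 2 and 3 (up to 0.268). Of the 22 TFH2 calls, 20 had the same sign in TFH cells, against 48.4% of all genes tested, and 15 had TFH libraries that did not overlap in that direction, against 5.32%. In the 48.4%, a gene with a log2 ratio of 0 in only 1 of the 2 cell groups counts as unlike. Over the 3227 genes with a mean of at least 50 CPM, the log2 ratios of the 2 cell groups had a Pearson r of 0.323. In TFH cells Id2 was at 107, 107 and 64.2 CPM in TFH CXCR5hi against 246, 143 and 279 in TFH CXCR5lo libraries (log2 -1.27 ± 0.28, adjusted p 0.0168). Klf2 was at 127, 158 and 182 CPM in TFH CXCR5hi against 373, 664 and 339 in TFH CXCR5lo libraries (log2 -1.57 ± 0.36, adjusted p 0.0298). Klf2 thus stood at 43.6 and 26.4 CPM in TFH2 CXCR5hi libraries, below all 8 TFH libraries. In the other gates too, TFH2 libraries (165 and 188 CPM in CXCR5lo, 178 and 177 in CXCR5int) lay below TFH libraries of the same gate. TFH CXCR5int libraries were at 228 and 330 CPM. The difference between the gate effects of Klf2 (log2 -0.70 ± 0.58) did not pass. Runx3 was at 54.3, 49.3 and 82.1 CPM in TFH CXCR5hi against 102, 175 and 184 in TFH CXCR5lo libraries (log2 -1.33 ± 0.43, adjusted p 0.599). Bcl6 was at 139, 94.4 and 124 CPM in TFH CXCR5hi against 32.6, 58.6 and 78.5 in TFH CXCR5lo libraries (log2 1.06 ± 0.65, adjusted p 0.658). Tox2 was at 869, 734 and 1129 CPM in TFH CXCR5hi against 241, 78.5 and 231 in TFH CXCR5lo libraries, where it was called (log2 2.31 ± 0.44, adjusted p 0.0279) but lost without CXCR5hi replicate 1 or CXCR5lo replicate 3 (adjusted p up to 0.111).

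Of all genes, 2 (0.0139%) had a gate difference that itself differed between TFH2 and TFH cells, and both were genes with no count in TFH2 CXCR5lo libraries. Without TFH2 CXCR5lo replicate 1 the number was 43 (42 higher, 1 lower). Fam3c was at 11.3, 127 and 38.9 CPM in TFH CXCR5hi against 53.1, 73.5 and 64.1 in TFH CXCR5lo libraries (log2 -0.14 ± 0.73, adjusted p 1), and the difference between the gate effects passed (adjusted p 0.000327). It was called with each of the 10 libraries left out. Smad5 was at 5.81, 41.4 and 15.6 CPM in TFH CXCR5hi against 23.6, 51.7 and 78.5 in TFH CXCR5lo libraries (log2 -1.32 ± 0.94, adjusted p 0.781), and the difference (adjusted p 0.0331) was lost without TFH2 CXCR5hi replicate 1, either TFH2 CXCR5lo library, TFH CXCR5hi replicate 3 or TFH CXCR5lo replicate 3 (adjusted p up to 0.304). S1pr1 was called in TFH cells (17.8, 14.6 and 27.5 CPM in TFH CXCR5hi against 223, 416 and 162 in TFH CXCR5lo libraries, log2 -3.75 ± 0.42, adjusted p 6.93e-09) and not in TFH2 cells (-1.45 ± 0.52 log2), but the difference between them (log2 2.29 ± 0.67, adjusted p 0.908) did not pass. The 2 groups differed beside the transgene. Ddx3y was uncounted in all 8 TFH libraries, and their Xist levels were 175 to 532 CPM, so sex and genotype cannot be told apart. The myeloid, erythroid and MHC class II sums of the TFH libraries were 283 to 598, 40.0 to 343 and 23.4 to 87.0 CPM, below those of all 6 TFH2 libraries, and their part in the comparison was not tested.

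**Figure D5:**
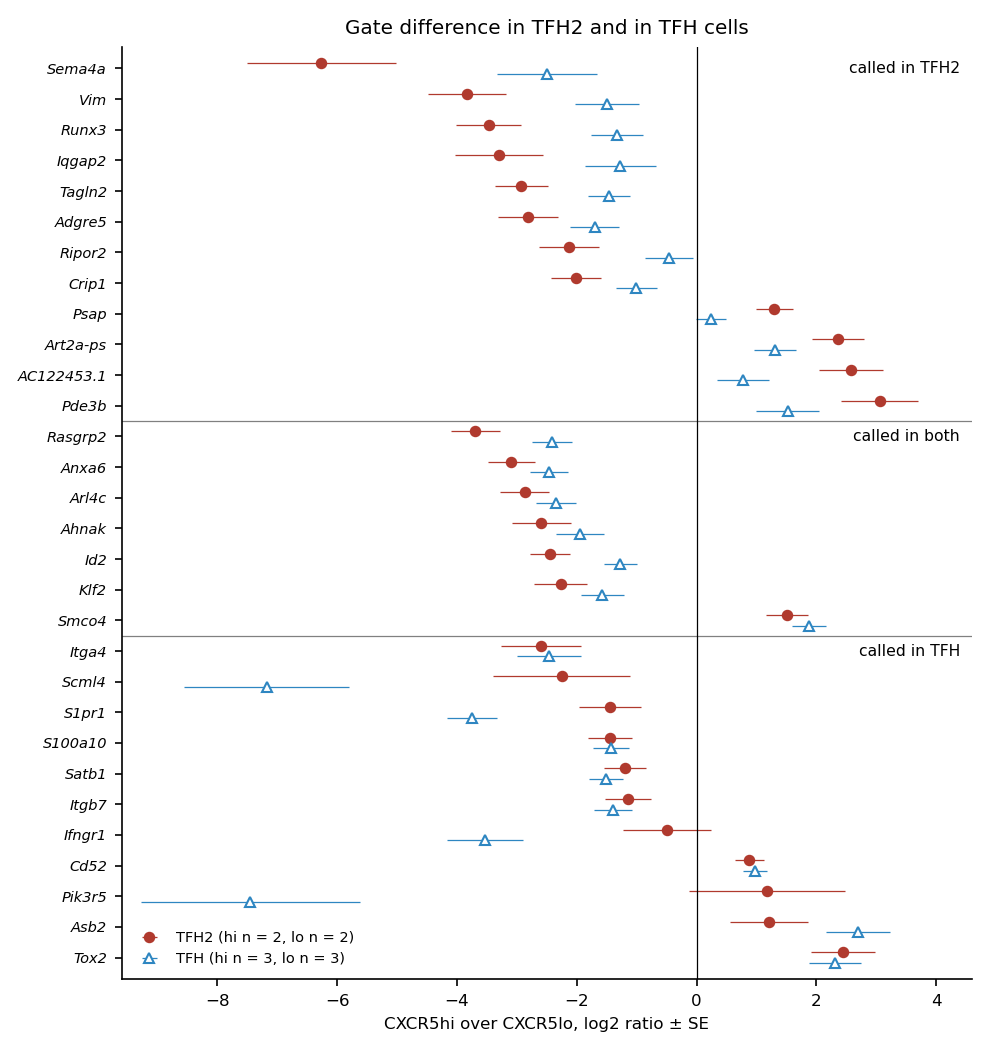
CXCR5hi over CXCR5lo as log2 ratios with standard errors for 30 genes called in TFH2 cells, in TFH cells or in both and counted in every group compared, with TFH2 (filled circles) drawn above TFH (open triangles) in each row. The 7 genes called in both lie on the same side of 0 in both cell groups, and Pik3r5 is the gene of this plot with opposite signs.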

How the data were processed

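The series holds 30 libraries of sorted CD4 T cells. Lexogen QuantSeq chemistry, which samples the 3' end of each transcript, was used for 22 of them with 10 ng of RNA, and the 8 made with another kit were not used here. The 6 TFH2 libraries were grouped by the gate in their titles. The labels carry no animal, batch or pairing number. The p values therefore measure only how far libraries spread within the groups of the fit described below, and that spread may be technical.

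Each QuantSeq file, as deposited, gives whole counts for each gene, and no normalization by the authors is recorded. The submitters' processing notes list featureCounts 1.6.0, STAR 2.7.0c and Bowtie 0.12.2, with the builds mm10, GRCm38.p6 and mm9. The program and build behind each file, and the use of strand in counting, are not given in the sources used here. Gene symbols and positions came from GENCODE M21 (GRCm38). Of 55573 identifiers, 179 matched no symbol and held 0.0293% of counts.

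The test was the quasi-likelihood F test of edgeR 4.0.16 (R 4.3.3), 2-sided and with robust estimation, TMM factors and the filterByExpr filter (minimum count 10, minimum total 15). All 22 QuantSeq libraries in 9 groups entered, with 13 residual degrees of freedom, so that gates with 2 libraries share 1 estimate of the spread. The slope fit had 14. Beside the TFH2 and TFH gates, the groups were the libraries titled TH2, Bcl6KO and Il4-/-. The spread within those groups, which differ from TFH2 cells in cell type or genotype, thus enters the p values too. Adjustment followed Benjamini and Hochberg across the 14383 genes tested, and genes with adjusted p under 0.05 are named as called. Log2 ratios stand with standard errors. CPM is a gene's count per M counts of its library, and a gene with an empty group gets a bound with 3 counts in each empty library, which covers counting error only. The coefficient of variation shared by genes was 1.26. The 2 libraries of each gate differed by more than counting noise (chi-square per degree of freedom 38.4 to 43.5), so each was counted as 1 sample. Technical repeats can differ by that much too.

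The libraries, gene lists and tests were chosen with earlier results of these data known. Named genes are the calls between CXCR5hi and CXCR5lo without overlap, up to 12 in each direction, up to 10 for the slope, up to 5 for each pair of neighbouring gates and the midpoint and up to 6 for the difference between TFH2 and TFH cells. All 22 calls are named, and Iqgap2, Ripor2, Satb1, Hist1h1e and Pik3r5 stand outside this rule and were named after their values were seen. The gate and sex genes, members of the TFH, TH2 and positioning lists, called members of the other lists and up to 6 of their most abundant members were also named. Some genes that these rules name are not reported here. Alternatives were DESeq2 1.42.0, other scaling and filters, fewer groups, and leaving out each library.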

Additional observations from a re-analysis of the deposited data

Results flagged for a closer look

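The difference between CXCR5hi and CXCR5lo cells was itself different between TFH2 and TFH cells for Fam3c and Smad5, by edgeR's test of that difference. For Fam3c the adjusted p of the difference was 0.000327. Fam3c had 92.1 and 43.2 CPM in TFH2 CXCR5hi and no count in TFH2 CXCR5lo libraries, while in TFH cells it was at 11.3, 127 and 38.9 CPM in TFH CXCR5hi against 53.1, 73.5 and 64.1 in TFH CXCR5lo libraries. For Smad5 the adjusted p was 0.0331. Smad5 had 46.4 and 7.69 CPM in TFH2 CXCR5hi and no count in TFH2 CXCR5lo libraries, and in TFH cells it was at 5.81, 41.4 and 15.6 CPM in TFH CXCR5hi against 23.6, 51.7 and 78.5 in TFH CXCR5lo libraries. The TFH2 CXCR5lo libraries held 2.84 and 1.83 M counts, and both genes were counted in all 6 TFH libraries compared. What lies behind the empty libraries was not tested.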

How the results depend on the processing

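No paired analysis was possible because the labels carry no replicate number, animal or batch that links libraries of different gates. Over all named genes and settings, no call changed sign, and each of the 22 calls kept its sign in every setting. The number of calls moved, and so did their balance: without TFH2 CXCR5lo replicate 1, 78 were higher and 33 lower in CXCR5hi than in CXCR5lo cells, against 7 and 15 with all libraries. Under DESeq2 there were 127 calls between CXCR5hi and CXCR5lo, 112 for the slope, 33 for CXCR5hi against CXCR5int, 37 for CXCR5int against CXCR5lo, 26 off the midpoint, 35 for the difference between TFH2 and TFH cells and 83 in TFH cells. In the same order of comparisons, with no filter on low counts there were 36, 35, 12 and 6 calls for the first 4, then 4 for the difference and 33 in TFH cells. Without the robust fit there were 37, 23, 16 and 7, then 7 for the difference and 36 in TFH cells. With a mean CPM of at least 10, there were 18 calls between CXCR5hi and CXCR5lo (14 of the 22 among them), 13 for the slope, 2 for CXCR5hi against CXCR5int, 1 for CXCR5int against CXCR5lo, 0 off the midpoint, 1 for the difference and 10 in TFH cells. With only TFH2 and TFH libraries, 44 genes passed between CXCR5hi and CXCR5lo, 19 for the slope and 6 for CXCR5int against CXCR5lo. With only the 6 TFH2 libraries, 32 passed between CXCR5hi and CXCR5lo (13 of the 22 among them), 31 for the slope (8 of the 12), 7 for CXCR5hi against CXCR5int (0 of the 6), 2 for CXCR5int against CXCR5lo and 0 off the midpoint. Leaving out each library in turn gave 21 to 111 calls between CXCR5hi and CXCR5lo, 13 to 41 for the slope, 8 to 16 for CXCR5hi against CXCR5int, 3 to 55 for CXCR5int against CXCR5lo, 0 to 21 off the midpoint, 1 to 43 for the difference and 13 to 29 in TFH cells. Leaving out a TFH2 library left a group of 1 library, which loosens the filter (17592 to 17760 genes tested), and the lone library is assumed to vary like the other groups. Leaving out a TFH library left 14222 to 14295 genes tested. The 111, 55, 21 and 43 calls all came without TFH2 CXCR5lo replicate 1. The 13 in TFH cells came without TFH CXCR5hi replicate 1. RLE factors in edgeR gave 22 calls between CXCR5hi and CXCR5lo and 12 for the slope, and moved no other count by over 1.5 times. Of the 22 calls, 8 were made in every setting (Ahnak, Anxa6, Arl4c, Fam3c, Id2, Rasgrp2, Tagln2 and Vim), and of the 12 slopes 5. Over single named genes, 4238 values stayed on their side of the threshold, 122 passed it anew and 96 no longer passed it. With 2 libraries a gate and a spread between replicates of this size, a difference of several fold in a gene of few counts was not detectable. The causes of these shifts were not tested.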
